A study of Arabidopsis thaliana with 8 samples.

Results

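The miRNAs ath-miR158a, ath-miR163, ath-miR824, ath-miR825, ath-miR843, ath-miR846 and ath-miR854a are 7 of the 161 *A. thaliana* miRNAs on the arrays, and they are miRNAs that are not shared widely among flowering plants, with miR854a added. They were chosen by name and from the miRNAs that had values above the lowest deposited value of 0.01, with earlier results of these data known, so that their detection is given only as a description. Whole Col-0 seedlings, grown for 7 days in liquid medium, were exposed for 30 or 180 min to 24-epibrassinolide (EBR, a steroid hormone of the brassinosteroid class) at 10 nM or to a mock solution of the solvent DMSO. The 4 groups, EBR30, mock at 30 min, EBR180 and mock at 180 min, were each hybridised as Cyanine 3-labelled total RNA on 2 single-colour Agilent arrays. The seedlings were wild type and complete, so a change confined to roots or leaves cannot be told apart from a smaller one in the whole plant, nor fewer cells of a type from less RNA per cell.

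Plant miRNAs are cut by a Dicer-like enzyme from hairpin precursors, loaded into an Argonaute protein, and pair almost perfectly with target transcripts, which are then cleaved or translated less. The families found in most flowering plants regulate mainly transcription factors and nutrient or stress responses. Less conserved families are often encoded by a single young locus, and many have targets that are narrow in function or not settled. miR824 targets *AGL16*, a MADS-box gene of the stomatal lineage. miR163 targets a small group of S-adenosylmethionine-dependent methyltransferases. miR846, like miR842, targets jacalin-related lectin genes, and both miRNAs come from a primary transcript that is spliced in alternative ways. miR854 precursors lie in copies of a retrotransposon, and the oligouridylate-binding protein gene *UBP1b* is a known target. For miR825 it is the small RNA from the other arm of the precursor that is known to act on transcripts of immune receptors. Mature sequences were not used here.

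In the gene table of RefSeq (assembly TAIR10.1) each of the 7 had 1 miRNA gene, which were *MIR158a* (AT3G10745), *MIR163* (AT1G66725), *MIR824* (AT4G24415), *MIR825* (AT2G26211), *MIR843* (AT3G48057), *MIR846* (AT1G61226) and *MIR854a* (AT5G04995). *MIR846* and *MIR842* (AT1G61224) were direct neighbours in that table. miR842 also had a row on the arrays, and its value was 0.01 on all 8 of them. The loci *MIR158b* and *MIR854b* to *MIR854e* had no row of their own.

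Of the 161 miRNAs, 47 were above 0.01 on at least 1 array and 43 on all 8. For these 43 the median over the arrays was 1, so each value is a linear ratio to the miRNA's own median, and levels cannot be compared between miRNAs. Sorted by family name, 16 of the 107 less conserved miRNAs (15.0%) and 31 of the 48 widely conserved ones (64.6%) were above 0.01 on at least 1 array. Less conserved here means every family not listed as widely conserved or as intermediate. The class is thus a remainder, and miR854a was counted in it for that reason. Of the 7 miRNAs described here, 6 were above it on all 8 arrays, and miR843 was above it on 7. No value of any miRNA lay between 0.01 and 0.434. The medians over the 43 miRNAs were 0.970 and 0.988 on the EBR30 arrays, 0.818 and 0.931 for mock at 30 min, 1.12 and 1.02 for EBR180, and 1.07 and 1.08 for mock at 180 min. On the log2 scale the array medians were therefore 0.17 higher in EBR30 than in mock and 0.30 higher at 180 than at 30 min in mock. For this reason many comparisons, though not all, are also given after centring every array on its median. Groups were compared with limma on log2 ratios over the 43 miRNAs with Benjamini-Hochberg adjustment and a threshold of 0.05. With the deposited ratios the spread was common to all miRNAs. This set the standard error of each log2 fold change between 2 groups at 0.125, also where duplicates lay far apart. After centring, limma shared the spread only in part. The standard error was then 0.048 for miR158a, 0.17 for miR846 and 0.22 for miR825. A call lost or gained after centring can therefore reflect the changed spread as well as the scaling.

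**Figure D1:**
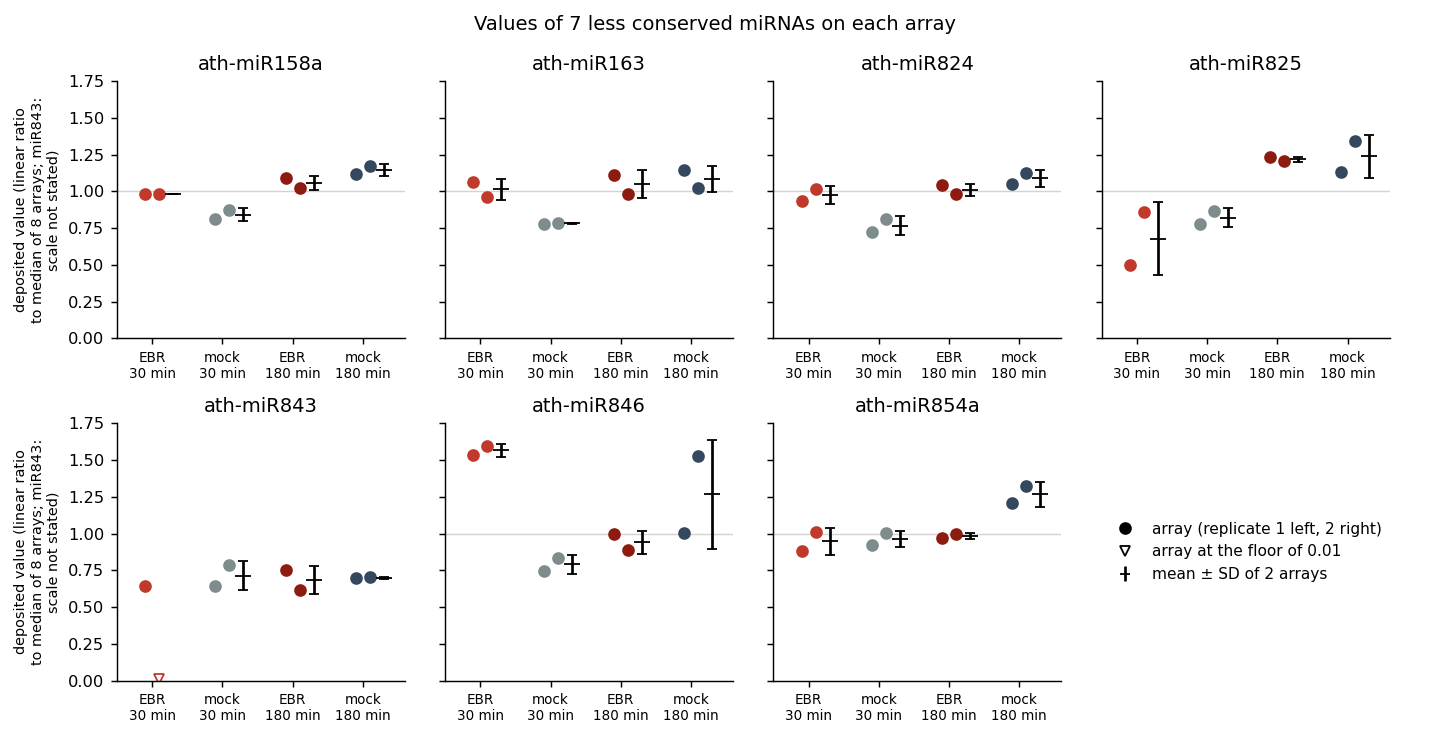
The deposited values of the 7 miRNAs are plotted on a linear axis for each array of the 4 groups, with the mean ± SD of the 2 arrays beside the points and an open triangle for an array at 0.01. miR846 was highest on both EBR30 arrays (1.53 and 1.60), miR854a on both mock arrays at 180 min (1.21 and 1.33), and miR825 was lower on all 30 min than on all 180 min arrays.

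All 6 miRNAs with values on every array passed the adjusted threshold in the moderated F-test over the 4 groups, a test that 27 of the 43 miRNAs (62.8%) passed. After centring, 2 of the 6 passed, miR846 (adjusted p = 0.0201) and miR854a (adjusted p = 0.0422). The widest range belonged to miR825, whose highest value was 2.67 times its lowest. That of miR846 was 2.14 times, and those of the other 4 lay between 1.45 and 1.56 times. By range on the log2 scale miR825 was 1st and miR846 3rd of the 43. miR163, miR824, miR158a and miR854a took ranks 18 to 28. In the deposited ratios mock at 180 min had the highest group mean in 5 of the 6, miR846 being the exception, and in 19 of the 43 (44.2%).

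miR846 was higher with EBR at 30 min by more than any other of the 43 miRNAs. At 30 min its ratio was 1.53 and 1.60 on the EBR30 arrays, against 0.746 and 0.834 on the mock arrays, with means of 1.56 ± 0.0437 and 0.790 ± 0.0624 (SD, n = 2 arrays each). Both EBR30 arrays lay far above both mock arrays and above every other array of the series, the nearest of which was mock replicate 2 at 180 min. The log2 fold change was 0.99 ± 0.125 (SE), or 1.98-fold, with an adjusted p of 1.22e-11 from limma, and by size it ranked 1st of the 43 miRNAs. After array centring it was 0.82 (adjusted p = 0.0173) and ranked 2nd. It was 0.59 after quantile normalization, where it no longer passed (adjusted p = 0.0658), and with the miRNA's own spread the adjusted p was 0.0830.

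At 180 min the order of EBR and mock was turned. miR846 had ratios of 0.994 and 0.886 on the EBR180 arrays, against 1.01 and 1.53 on the mock arrays, a mean of 0.940 ± 0.0761 in EBR180 and 1.27 ± 0.370 in mock (SD, n = 2 arrays each). EBR180 replicate 1 lay only just below mock replicate 1, and the mock duplicates differed by 0.60 on the log2 scale, the 2nd largest gap of the 43 in that group. The log2 fold change of -0.40 passed the threshold (adjusted p = 0.0126 from limma), but without mock replicate 2 it was -0.10 (adjusted p = 0.880). The call was also lost without EBR180 replicate 1, where the fold change was -0.49 (adjusted p = 0.185), and without EBR180 replicate 2, where it was -0.32 (adjusted p = 0.369). After centring the value was -0.39 with an adjusted p of 0.137. The EBR effect at 180 min was lower than that at 30 min by 1.39 ± 0.176 (SE) on the log2 scale (adjusted p = 1.48e-11), the largest such difference in size among the 43. With any 1 array left out this difference stayed between -1.69 and -1.09 and passed the threshold, and after centring it was -1.21 (adjusted p = 0.0104). With the miRNA's own spread the adjusted p was 0.0805.

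With EBR, miR846 fell by 0.74 on the log2 scale at 180 relative to 30 min (adjusted p = 2.47e-07 from limma), and by 0.87 after centring (adjusted p = 0.0159). It was 1 of 2 miRNAs described here that passed in this comparison, and no other of the 43 had a lower fold change. In mock miR846 rose by 0.65 over the same time (adjusted p = 4.1e-06). That rise was 0.35 after centring (adjusted p = 0.171) and also 0.35 without mock replicate 2 at 180 min (adjusted p = 0.0343). By group means of the deposited ratios miR846 was thus highest in EBR30, then in mock at 180 min, EBR180 and mock at 30 min. The duplicates of the upper pair of groups did not overlap, although mock replicate 2 at 180 min came close to the lower EBR30 array (both 1.53). miR842, from the neighbouring locus, was at 0.01 throughout and gave no values to set beside these.

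miR824 and miR163 had their lowest group mean in mock at 30 min, as did 4 of the 6 members and 30 of the 43 miRNAs (69.8%). The ratio of miR824 was 0.931 and 1.02 on the EBR30 arrays, against 0.723 and 0.813 on the mock arrays, so that both EBR30 arrays lay above both mock arrays. The log2 fold change was 0.35 (1.27-fold, adjusted p = 0.0257 from limma). For miR163 the ratios were 1.07 and 0.964 in EBR30, against 0.780 and 0.786 in mock, where the duplicates were almost equal. Its log2 fold change was 0.37 (1.30-fold, adjusted p = 0.0170 from limma). Both changes were above the shift of the array medians of 0.17. After centring they were 0.18 for miR824 (adjusted p = 0.0620) and 0.21 for miR163 (adjusted p = 0.137), and neither passed the threshold. Without EBR30 replicate 1 the log2 fold changes were 0.41 for miR824 (adjusted p = 0.0763) and 0.30 for miR163 (adjusted p = 0.170), and without mock replicate 1 at 30 min 0.26 for miR824 (adjusted p = 0.170) and 0.37 for miR163 (adjusted p = 0.0562), so that each call was lost. Without EBR30 replicate 2 that of miR824 was 0.28 and was lost as well (adjusted p = 0.209).

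At 180 min neither of the pair passed. The same held after centring, with log2 fold changes of -0.094 for miR824 (adjusted p = 0.235 from limma) and -0.037 for miR163 (adjusted p = 0.736). miR824 had 1.04 and 0.982 in EBR180 and 1.05 and 1.13 in mock, with the log2 fold change at -0.10 and its 95% interval from -0.35 to 0.14. miR163 had 1.11 and 0.980 in EBR180 and 1.14 and 1.02 in mock, where the groups overlapped, with a log2 fold change of -0.048 and an interval from -0.29 to 0.20. The EBR effect of miR824 was lower at 180 than at 30 min by 0.45 ± 0.176 (SE) on the log2 scale (adjusted p = 0.0474 from limma), and after centring by 0.27 (adjusted p = 0.0321). The call did not hold after quantile normalization (adjusted p = 0.0844), and with single arrays left out it was lost for both EBR30 arrays, EBR180 replicate 2, mock replicate 1 at 30 min and mock replicate 2 at 180 min (adjusted p from 0.0693 to 0.174). For miR163 the corresponding difference was -0.42 (adjusted p = 0.0644), short of the threshold, and after centring -0.25 (adjusted p = 0.198). It passed in 3 of 14 alternatives, among them a replicate block within each time (adjusted p = 0.0191). That block joins arrays by their number only.

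For miR824, EBR180, EBR30 and mock at 180 min formed a run in which only EBR30 and EBR180 overlapped, and mock at 30 min lay below. For miR163 the 3 upper groups all overlapped, and after centring mock replicate 1 at 30 min (-0.069 on the log2 scale) lay above mock replicate 2 at 180 min (-0.084), so that its mock groups overlapped too. In mock, miR824 was 1.42-fold (adjusted p = 0.000340 from limma) and miR163 1.38-fold higher (adjusted p = 0.00102) at 180 than at 30 min, while with EBR the log2 fold change over the same time was 0.054 for miR824 (95% interval -0.19 to 0.30) and 0.044 for miR163 (interval -0.20 to 0.29). These changes with EBR were below 0 after centring, at -0.074 for miR824 and -0.084 for miR163, and did not pass in either form.

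In the deposited ratios miR158a had the same order of group means as miR824 and miR163. After centring its change at 180 against 30 min with EBR was -0.020, below 0 as for that pair, so this order was not kept. Its ratio was 0.979 on both EBR30 arrays, against 0.811 and 0.871 in mock. At 180 min it was 1.09 and 1.02 with EBR, against 1.12 and 1.17 in mock. In the deposited ratios no 2 of the 4 groups overlapped, yet neither EBR comparison passed. After centring, EBR30, EBR180 and mock at 30 min overlapped one another. Only mock at 180 min (0.055 and 0.12 on the log2 scale) then lay apart. The log2 fold change was 0.22 at 30 min (adjusted p = 0.150 from limma, 95% interval -0.026 to 0.47) and -0.12 at 180 min (adjusted p = 0.719, interval -0.36 to 0.13). The EBR30 duplicates differed by 0.000299 on the log2 scale, the smallest gap of the 43 in that group. After centring the change at 30 min was 0.055, about the size of its standard error there (0.0478). The centred change at 180 min was -0.11 and did not pass either (adjusted p = 0.142 from limma).

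miR854a was lower with EBR at 180 min. Its ratio was 0.966 and 0.999 on the EBR180 arrays, against 1.21 and 1.33 on the mock arrays, which lay above all 6 other arrays. The log2 fold change was -0.36 (0.777-fold, adjusted p = 0.0286 from limma), and after centring -0.35 (adjusted p = 0.0277). Scaling thus made little difference to the comparison at 180 min. The call was lost without either EBR180 array (adjusted p = 0.185 without replicate 1 and 0.0660 without replicate 2) and without mock replicate 2 (adjusted p = 0.382), although the log2 fold change stayed between -0.43 and -0.30. At 30 min the ratios were 0.882 and 1.01 with EBR and 0.922 and 1.00 in mock, with a log2 fold change of -0.025 (95% interval -0.27 to 0.22). After centring the log2 fold change at 30 min was -0.19 (adjusted p = 0.137 from limma). Both EBR30 arrays (-0.14 and 0.033 on the log2 scale) then lay below both mock arrays (0.17 and 0.11). In the deposited ratios, apart from mock at 180 min, the groups of miR854a overlapped one another. Tested directly, its EBR effect at 180 min minus that at 30 min was -0.34 (adjusted p = 0.156). After centring this difference was -0.16 (adjusted p = 0.362), so a difference between the times was not shown.

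miR825 was higher on every array at 180 min than on any at 30 min, and at 180 min its EBR arrays lay between its mock arrays. Its ratios were 1.23 and 1.21 on the EBR180 arrays, against 1.13 and 1.34 on the mock arrays, which enclosed them. The log2 fold change at 180 min was -0.016 (95% interval -0.26 to 0.23), the smallest in size of the 43. After centring the log2 fold change at 180 min was -0.0051 (adjusted p = 0.982 from limma). At 30 min the ratios were 0.502 and 0.857 in EBR30 and 0.778 and 0.866 in mock, so the groups overlapped. The EBR30 duplicates were 0.77 apart on the log2 scale, the widest gap in that group, against a median of 0.066 over the 43. With the common spread the log2 fold change of -0.32 passed the threshold (adjusted p = 0.0309 from limma). Without EBR30 replicate 1 it was 0.063 (adjusted p = 0.744) and without EBR30 replicate 2 it was -0.71 (adjusted p = 0.000173), and with the miRNA's own spread the adjusted p was 0.429. The call was also lost without either mock array at 30 min (adjusted p = 0.112 without replicate 1 and 0.248 without replicate 2), after centring (-0.49, adjusted p = 0.137) and, with the fold change unaltered, without either EBR180 array (adjusted p = 0.168).

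The time difference of miR825 was seen in both treatments. With EBR it was 0.89 on the log2 scale at 180 against 30 min (1.86-fold, adjusted p = 8.84e-10 from limma), the largest of the 43, and in mock 0.59 (1.50-fold, adjusted p = 3.09e-05). After centring the values were 0.77 (adjusted p = 0.0446) and 0.28 (adjusted p = 0.381). Without EBR30 replicate 1 the change with EBR was 0.51 and still passed (adjusted p = 0.0175). In the deposited ratios miR825 and miR158a were the only members whose 4 arrays at 180 min all lay above their 4 arrays at 30 min. This order was found in 12 of the 43 miRNAs (27.9%). After centring only miR825 of the members kept it. For miR158a the centred EBR180 values (-0.039 and 0.0 on the log2 scale) then overlapped the EBR30 values (0.014 and -0.013).

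miR843 was not fitted with the others because it was at 0.01 on EBR30 replicate 2. Its other values were 0.646 on EBR30 replicate 1, 0.645 and 0.784 for mock at 30 min, 0.754 and 0.617 for EBR180, and 0.694 and 0.705 for mock at 180 min. These values have a median of 0.694, not 1, so their scale is not stated. Their highest was 1.27 times their lowest. The 1 EBR30 value lay within the range of the mock arrays at 30 min, and both mock values at 180 min lay within the range of the EBR180 arrays. With the value at 0.01 treated as missing, none of the 5 comparisons passed in limma, and the log2 fold changes lay between -0.14 and 0.10 with an unadjusted p of at least 0.374. Since the signal behind a value of 0.01 was not given, the size of the difference between the EBR30 duplicates is unknown.

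Counted together, 4 of the 6 tested members passed in EBR30 against mock, 3 higher (miR846, miR163 and miR824) and 1 lower (miR825, only with EBR30 replicate 1 included), beside 16 of all 43 (37.2%). Their median log2 fold change was 0.28, against 0.18 over the 43. Without EBR30 replicate 1 or mock replicate 1 at 30 min 1 of the 6 passed, beside 5 and 6 of the 43. After centring 1 of the 6 passed, miR846, while over the 43 the calls were 4 higher and 4 lower in place of 13 higher and 3 lower. At 180 min 2 of the 6 passed, both lower (miR846 and miR854a), beside 7 of 43 (16.3%), and the medians were -0.11 for the members and -0.016 for the 43. In limma none of the 6 passed without mock replicate 2 at 180 min or either EBR180 array, and 1, 2 and 1 had an unadjusted p under 0.05 without mock replicate 2, EBR180 replicate 1 and EBR180 replicate 2. The arrays of EBR and mock did not overlap for 4 of the 6 at 30 min, all with EBR higher. Over the 43 this was so for 28 with EBR higher and 5 with EBR lower (76.7% in either direction). At 180 min the arrays did not overlap for 4 of the 6, all with EBR lower. Over the 43 this was so for 14 with EBR lower and 10 with EBR higher (55.8% in either direction). The EBR effect differed between the times for 2 of the 6, miR846 and miR824, both lower at 180 min, beside 11 of the 43 (25.6%). Over the 43 these calls were 4 higher and 7 lower, and 8 higher and 7 lower after centring, where the same pair of members passed.

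**Figure D2:**
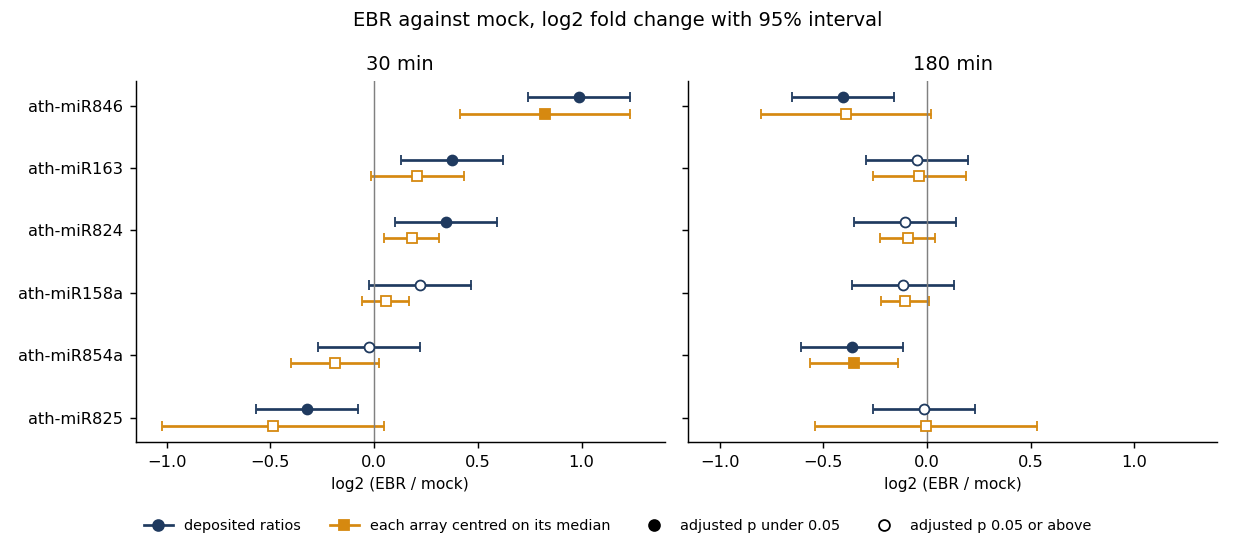
Log2 fold changes of EBR against mock with 95% intervals for the 6 tested miRNAs at 30 and 180 min, from the deposited ratios (circles) and after centring each array on its median (squares); filled symbols have an adjusted p under 0.05. miR846 lay at 0.99 at 30 min and at -0.40 at 180 min, and at 30 min centring moved every value down by 0.17.

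Over time, all 6 passed in mock, each higher at 180 than at 30 min, beside 28 of 43 (65.1%). The log2 fold changes lay between 0.40 for miR854a and 0.65 for miR846. The array medians themselves differed by 0.30 in this comparison. After centring, only miR824 of the 6 passed (0.20, adjusted p = 0.0349), and over the 43 the calls were 7 higher and 8 lower in place of 25 higher and 3 lower. With EBR, 2 of the 6 passed in opposite directions (miR825 higher and miR846 lower), beside 8 of 43 (18.6%), and the same pair passed after centring. Over the 43 the calls were 7 higher and 1 lower, and 7 higher and 5 lower after centring. For the other 4 the change with EBR was between 0.044 and 0.11, and after centring between -0.084 and -0.020. The arrays at 180 and 30 min did not overlap for all 6 in mock (88.4% of the 43) and for 3 of the 6 with EBR (60.5% of the 43).

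**Figure D3:**
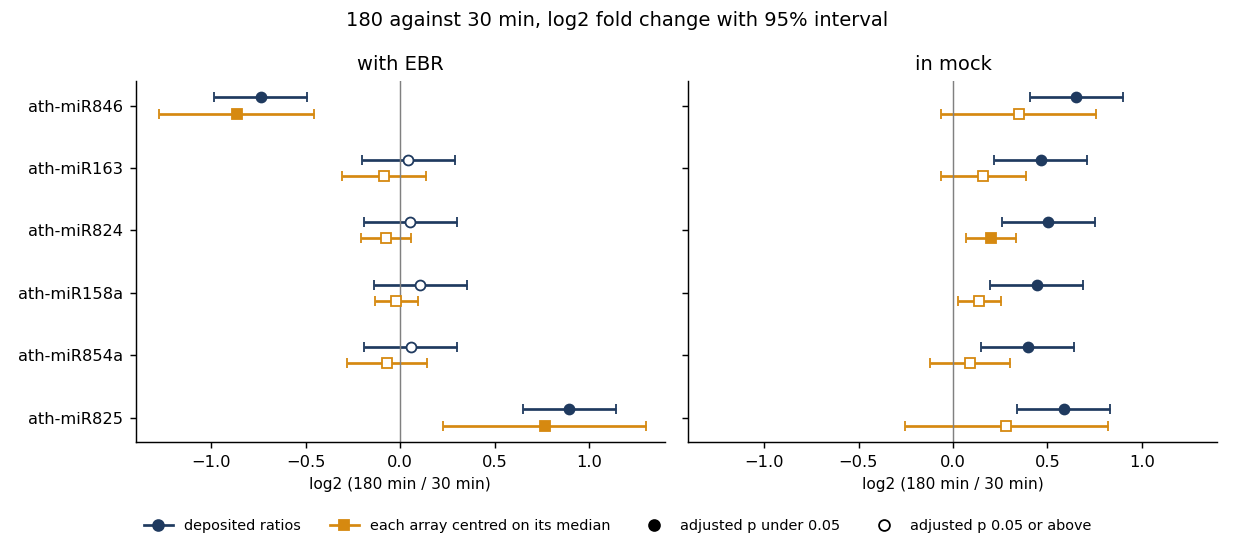
Log2 fold changes of 180 against 30 min with 95% intervals, with EBR on the left and in mock on the right, with the same symbols for deposited and centred ratios. In mock the deposited values of all 6 miRNAs lay between 0.40 and 0.65, whereas with EBR miR825 lay at 0.89, miR846 at -0.74 and the other 4 near 0.

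The 8 other less conserved miRNAs with values on every array (miR161.1, miR161.2, miR173, miR400, miR775, miR822, miR823 and miR869.2) were compared with the members as a description. The class is the remainder of families defined above and includes miR854a. All 14 less conserved miRNAs, the 6 members among them, had a log2 fold change below 0 in EBR180 against mock, with a median of -0.13. The values lay between -0.49 and -0.016, so that some were near 0 beside the standard error of 0.125. Of the 29 widely conserved miRNAs 21 were above 0, with a median of 0.080. Only 3 of the 14, miR846, miR854a and miR161.2 (the last named here after its value was seen), passed the threshold, and 4 of the 29, all higher. After centring 4 of the 14 passed, all lower, and 9 of the 29, 7 higher and 2 lower. The counts were 14 and 21 after centring and 14 and 20 after quantile normalization. With single arrays left out, between 12 and 14 of the 14 were below 0 and between 16 and 24 of the 29 above 0. At 30 min 12 of the 14 and 21 of the 29 were above 0, and 9 and 15 after centring. All these miRNAs were read from the same 4 arrays, which makes their signs dependent on one another, and the difference between the classes was not tested.

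**Figure D4:**
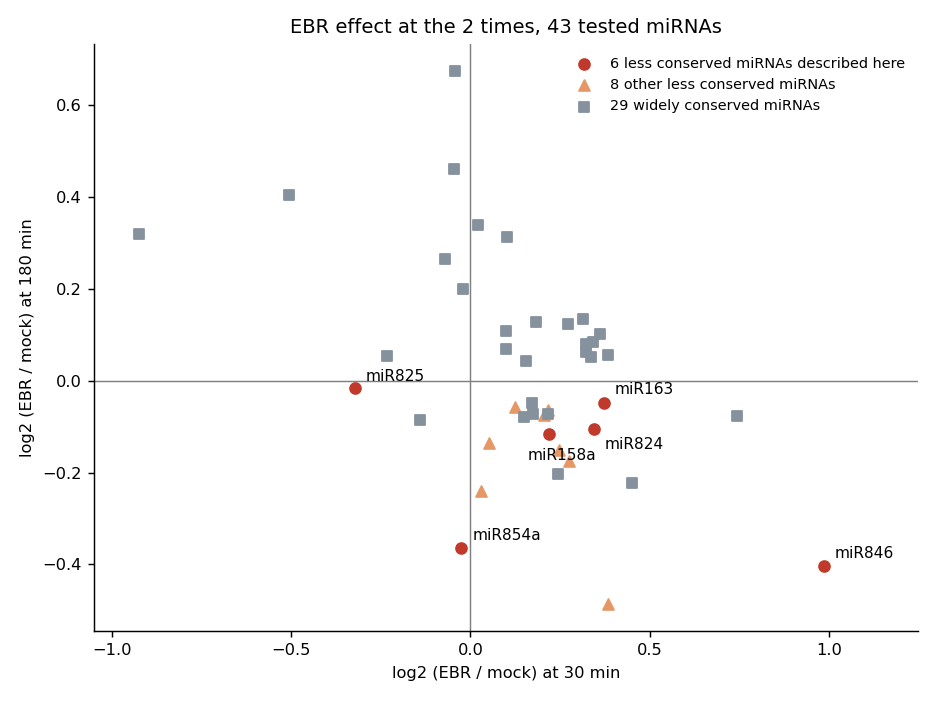
Each of the 43 tested miRNAs is placed by its log2 fold change of EBR against mock at 30 min (horizontal axis) and at 180 min (vertical axis), with circles for the 6 members, triangles for the 8 other less conserved miRNAs and squares for the 29 widely conserved ones. The 14 less conserved miRNAs all lie below 0 on the vertical axis, between -0.49 and -0.016. miR846 is at the far right (0.99) and miR825 is the lowest of the members at 30 min (-0.32).

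The likeness of other miRNAs to the members differed between members. It was measured as the root-mean-square difference in log2 ratio over the 8 arrays, as a description. miR158a lay closest to miR173 (0.030), the trigger of *trans*-acting siRNAs from *TAS1* and *TAS2*, and to miR157d (0.057), of the family that acts on *SPL* transcription factors. miR163 lay closest to miR162a (0.065), which acts on the transcript of the Dicer-like enzyme itself, and miR156h (0.072). miR824 lay closest to miR157d (0.084) and to miR169h (0.085), of the family that acts on NF-YA transcription factors. The nearest to miR854a were miR869.2 (0.11) and miR157d (0.13). By contrast, the nearest to miR825, miR172e of the family that acts on *AP2*-like genes, was at 0.31, and the nearest to miR846, miR822, at 0.35, against medians over all tested miRNAs of 0.40 for miR825 and 0.41 for miR846. The next were miR170 (0.33) for miR825 and miR157d (0.36) for miR846. For the other members the medians over all tested miRNAs were 0.14 for miR158a, 0.16 for miR163, 0.17 for miR824 and 0.22 for miR854a. These members thus lay closer to the tested miRNAs in general, and not only to the neighbours named. Among the members themselves the closest pair was miR158a and miR824 (0.09), and the farthest was miR825 and miR846 (0.69).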

How the data were processed

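For each miRNA and array, a linear ratio to the median of all samples was deposited, made by the authors in GeneSpring from Agilent Feature Extraction output (version 9.1 per the submitters' processing notes). Background correction, scaling between arrays and the origin of the 0.01 values are not given in the sources used here, nor is signal over background. The small number of arrays per group also limits the precision. GEO's design note speaks of independent experiments, 2 at each time, without saying which arrays shared one. If duplicates shared a culture, the p-values measure only the spread between arrays.

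The log2 of the ratios of the 43 miRNAs above 0.01 on all 8 arrays was fitted with limma 3.58.1 in R 4.3.3, with a mean per group and no covariates. The code was also run on simulated data with a common spread and no shifts between arrays. That run checks the code and not the p-values on these arrays. The named miRNAs are the 7 members and, for each tested member, the 2 nearest miRNAs. Conservation classes were set by family name. The members, lists and tests were chosen with earlier results of these data known. Alternatives were array centring, quantile normalization, a replicate block, each miRNA's own spread, miRNAs at 0.01 on some arrays with these values missing, and single arrays left out. With the own spread, only the test over the 4 groups is the one-way analysis that the methods name. The other comparisons with the own spread were t-tests. All of these were adjusted as in the main fit, which the paper does not state for its own test. Coordinates were not used because the files name no genome build.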

Additional observations from a re-analysis of the deposited data

Results flagged for a closer look

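The EBR effect of miR846 differed between the times in a test of the difference itself. The effect at 180 min minus that at 30 min was -1.39 on the log2 scale (adjusted p = 1.48e-11 from limma). Both EBR arrays lay above both mock arrays at 30 min and below both at 180 min. At 180 min EBR180 replicate 1 (0.994) was only just below mock replicate 1 (1.01). Without mock replicate 2 the effect at 180 min was -0.10. For miR824 the difference was -0.45 (adjusted p = 0.0474 from limma), with the same order of arrays at each time, and it lost the call in 8 of 14 alternatives. These were quantile normalization (adjusted p = 0.0844), the miRNA's own spread (0.0907), a fit that added miRNAs with a few values of 0.01 (0.0556) and the omission of single arrays in 5 cases. For miR846 the call was lost in 1 of 14, with its own spread (adjusted p = 0.0805). On the mock arrays miR846 was 0.65 and miR824 0.50 higher at 180 than at 30 min, beside 0.30 in the array medians. After centring the differences were -1.21 for miR846 and -0.27 for miR824.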

How the results depend on the processing

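Of the calls among the 6 tested miRNAs in limma, those in EBR30 against mock numbered 4. They were 1 after array centring, 0 after quantile normalization, 0 when the spread of the single miRNA was used, and 1 to 4 without single arrays. In EBR180 against mock they were 2, against 1, 1 and 0 under the same settings and 0 to 2 without single arrays. For the EBR effect at 180 against 30 min they were 2, against 2, 1 and 0, 1 with the miRNAs at 0.01 on some arrays included, 3 with a replicate block within each time and 1 to 3 without single arrays. At 180 against 30 min they were 6 in mock (1, 0 and 4 under the same settings) and 2 with EBR (2, 2 and 0). Over the 4 groups they were 6, against 2, 3 and 1, and 5 to 6 without single arrays.

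Over the 43 miRNAs the calls in EBR30 against mock were 16, and 8 after centring, 6 after quantile normalization, 2 with the own spread and 5 to 19 without single arrays. In EBR180 against mock they were 7, and 13, 11, 0 and 2 to 9. For the difference of the effects they were 11, and 15, 14, 4 and 7 to 13. At 180 against 30 min they were 28 in mock (15, 10, 22 and 19 to 32) and 8 with EBR (12, 11, 2 and 4 to 11). Over the 4 groups they were 27, and 21, 22, 9 and 21 to 35. The arrays whose absence moved a count over the 43 by more than 1.5 times were, in EBR30 against mock, EBR30 replicate 1 (5), EBR30 replicate 2 (9) and mock replicate 1 at 30 min (6). In EBR180 against mock they were EBR180 replicate 1 (2) and mock replicate 2 at 180 min (2), for the difference of the effects EBR30 replicate 1 (7), and over time with EBR EBR180 replicate 1 (4).

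At an unadjusted p under 0.05 in limma, the counts of 0 among the 6 were 2 after quantile normalization, both in EBR30 against mock and over time in mock. With the own spread they were 4 in EBR30 against mock, 1 in EBR180 against mock, 4 for the difference of the effects and 2 over time with EBR, and the count of 0 over the 43 was 9.

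The fold change at 180 against 30 min with EBR turned below 0 for miR158a (-0.020 after centring and -0.016 after quantile normalization), miR163 (-0.084 and -0.12), miR824 (-0.074 and -0.067) and miR854a (-0.071 and -0.12). With single arrays left out it lay between -0.049 and 0.14 for miR163, -0.011 and 0.12 for miR824 and -0.041 and 0.16 for miR854a. Likewise EBR30 against mock lay between -0.71 and 0.063 for miR825 and -0.12 and 0.073 for miR854a. EBR180 against mock lay between -0.14 and 0.045 for miR163 and -0.14 and 0.10 for miR825, and the difference of the effects of miR825 between -0.079 and 0.69. Of all pairs of a member's result and an alternative, 396 kept direction and side of the threshold, 67 lost the call, 4 gained it and 19 turned round; apart from the values that the settings themselves change, the causes were not tested.

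Same-numbered arrays of different groups shared a number in the labels but no stated experiment, and their deviations from the group means correlated with r between 0.11 and 0.36 over the 43 miRNAs. With the replicate block the counts of calls over the 43 were 16, 7, 11, 28, 8 and 27, equal to those without it. With a replicate block within each time they were 20 in EBR30 against mock, 9 in EBR180 against mock and 13 for the difference of the effects, and among the members miR163 gained the call for that difference (adjusted p = 0.0191). The 2 arrays per group and the absence of signal over background limit the precision of every value.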
